A study of Mus musculus with 16 samples.

Results

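Genes that mark the endothelium of the liver sinusoid were followed in liver RNA of 16 mice with or without hepatocyte Fgl1. The 10 genes, Stab1, Stab2, Lyve1, Clec4g, Pecam1, Kdr, Oit3, Fcgr2b, Bmp2 and Wnt2, were taken by their symbols, and all 10 were found among the 17003 genes of the deposited table. Fgl1 LWT mice (n = 8) carried floxed Fgl1 alleles without CRE, and Fgl1 LKO littermates (n = 8) carried the same alleles with CRE under the albumin promoter, which is active in hepatocytes. The deletion was therefore aimed at hepatocytes and not at the endothelial cells that express the markers. All mice were males aged 8 weeks, labelled fed, on normal chow, and each library was polyA RNA of the whole liver of 1 mouse.

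Sinusoidal endothelial cells line the capillaries of the liver with a thin, fenestrated wall that lets plasma reach the hepatocytes. They are known as scavengers, which clear hyaluronan, modified proteins and immune complexes from blood through receptors such as the stabilins and the inhibitory Fc receptor encoded by Fcgr2b. They also send signals to hepatocytes, among them BMP2, which induces the iron hormone hepcidin, and WNT2, which maintains gene expression around the central vein.

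Expression was given as FPKM, that is, fragments scaled to transcript length and to the mapped fragments of the library, so that levels could be set between genes as well as between mice. How many reads each library holds is unknown. The lowest values of 51 genes, which may stand for 1 fragment, lay at 0.97 to 1.06 across mice, relative to the typical lowest value of each gene. A higher figure here means a lower depth. FPKM summed over all genes came to between 673153 and 786188 per mouse. Fgl1 itself ranged from 157.8 to 1331 FPKM in Fgl1 LWT mice and from 13.2 to 90.0 FPKM in Fgl1 LKO mice, so no library went against its label. None of the 10 markers was at 0 in any mouse, and the summed FPKM of the 10 lay between 56.0 and 128.6 in Fgl1 LWT mice and between 39.8 and 153.7 in Fgl1 LKO mice. In RNA of whole liver, fewer endothelial cells and less RNA per endothelial cell cannot be told apart.

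The 250 bases before the start of the canonical transcript were read for 9 of the 10 markers from GRCm39, the assembly named mm39 that was used for alignment, with GENCODE vM39. The core sequence AGGAAG, which ETS factors bind, was sought on both strands. The GATA factor motif with the letters AGATAA was sought likewise. For SOX factors the letters searched, also on both strands, were ACAATG. ETS matches were present in 4 of the 9 promoters (Stab1, Lyve1, Clec4g and Wnt2), against 28.9% of 21770 promoters of protein-coding genes. GATA matches were present in 2 (Lyve1 and Wnt2), against 9.6%, and a SOX match in 1 (Clec4g), against 9.41%. The promoters of Clec4g, the marker with the highest level (chr8:3770672-3770921), Lyve1, which varied most (chr7:110462461-110462710), and Wnt2, which followed the others least (chr6:18031893-18032142), all of genes on the minus strand, are given 5′ to 3′ on the strand of the gene, with capitals for these matches. In Clec4g the 10 capitals AGGAAGGAAG hold an overlapping pair of ETS matches.
Clec4g: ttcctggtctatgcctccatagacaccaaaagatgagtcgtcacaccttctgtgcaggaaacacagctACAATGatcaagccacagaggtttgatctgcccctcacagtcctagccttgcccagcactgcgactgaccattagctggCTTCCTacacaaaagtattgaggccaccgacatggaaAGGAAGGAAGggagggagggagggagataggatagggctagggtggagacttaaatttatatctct
Lyve1: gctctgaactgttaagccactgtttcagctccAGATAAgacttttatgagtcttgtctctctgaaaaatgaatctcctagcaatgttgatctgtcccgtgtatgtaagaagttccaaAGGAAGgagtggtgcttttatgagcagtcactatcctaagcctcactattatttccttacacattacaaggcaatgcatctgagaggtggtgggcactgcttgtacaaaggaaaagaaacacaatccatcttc
Wnt2: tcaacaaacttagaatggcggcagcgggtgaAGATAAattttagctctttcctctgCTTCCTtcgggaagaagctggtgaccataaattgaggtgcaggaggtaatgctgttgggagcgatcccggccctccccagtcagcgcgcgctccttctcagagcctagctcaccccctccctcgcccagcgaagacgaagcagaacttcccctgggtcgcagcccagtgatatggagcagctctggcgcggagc
A match to 6 letters is a description of the sequence and not a binding site, and the absence of one says only that these letters are not in this window. Whether the matches bear on the levels of the markers was not tested.

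None of the 10 markers differed between the genotypes beyond the spread between mice. After adjustment over the 12770 genes whose mean reached 0.1 FPKM, which included all 10 markers, limma called 0 of the 10 at an adjusted p under 0.05, and 0% of all genes. At an unadjusted p under 0.05 it also called 0 of the 10, against 7.01% of all genes (895 genes, 593 of them higher in Fgl1 LKO mice). The FPKM of the genotypes overlapped for every marker, and 0.0157% of all genes did not overlap. The log2 fold change, Fgl1 LKO minus Fgl1 LWT on log2(FPKM + 1), was above 0 for 8 of the 10, against 55.8% of all genes, and its median over the markers was 0.02, against 0.014 over all genes. This scale understates changes of genes with low FPKM. The 10 markers varied together between mice, so that 8 of 10 is not a count of separate observations. The deleted gene Fgl1 was itself not called (log2 fold change -3.11, limma adjusted p = 0.0725). An adjusted p above the threshold therefore does not show that a gene is unchanged.

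**Figure D1:**
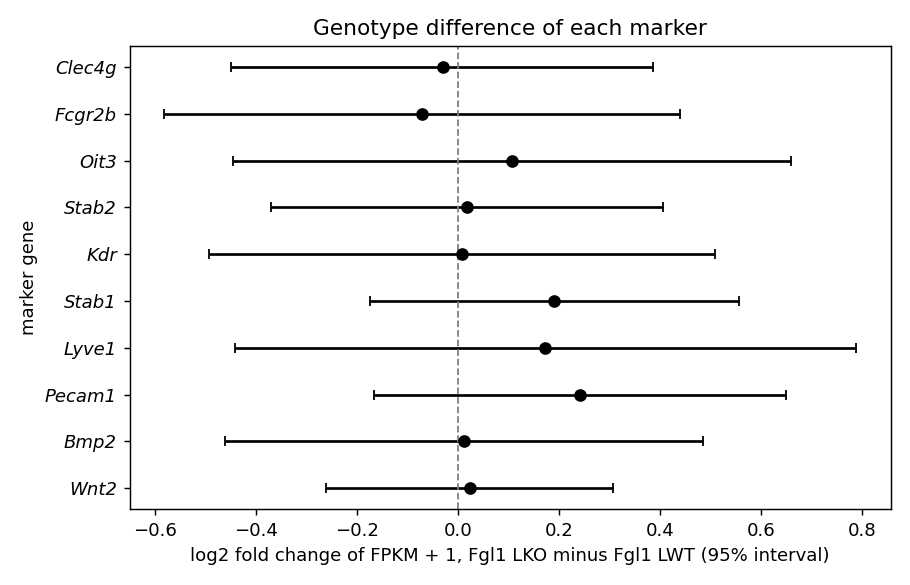
Log2 fold change of FPKM + 1 (Fgl1 LKO minus Fgl1 LWT, 8 mice each) of the 10 markers on the x axis, with 95% intervals from limma as bars. Every interval spans 0, and the widest, of Lyve1, runs from -0.44 to 0.79.

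Among the receptors for uptake, Clec4g, which encodes a C-type lectin of the sinusoidal wall, had the highest level of the 10 markers. The gene lies on chromosome 8 from 3757064 to 3770671 (minus strand, 9 exons). In Fgl1 LWT mice its lowest, median and highest values were 21.4, 31.6 and 39.3 FPKM, and in Fgl1 LKO mice 12.6, 31.9 and 45.8 FPKM. The lowest and the highest mouse were thus both Fgl1 LKO, and the means of 30.3 ± 6.88 and 30.5 ± 9.54 FPKM (SD, n = 8 each) were nearly the same. Its log2 fold change was -0.03 (95% interval -0.45 to 0.39, exact permutation test, two-sided, p = 0.901, limma adjusted p = 0.976).

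Fcgr2b, whose product takes up immune complexes, lies on chromosome 1 from 170786186 to 170804177 (minus strand, 7 exons). Its FPKM was 11.6, 20.6 and 29.2 (lowest, median, highest) in Fgl1 LWT mice and 8.13, 21.1 and 31.1 in Fgl1 LKO mice. The ranges overlapped almost whole, with a log2 fold change of -0.07 (95% interval -0.58 to 0.44, exact permutation p = 0.795, limma adjusted p = 0.958). Of the windows of 50 bases in its canonical transcript, 8.59% also occur in transcripts of other genes, and 4.95% in those of Fcgr3, a nearby activating Fc receptor gene. Reads from these stretches could have been counted for either gene, and Fcgr2b is the only one of the 10 with more than 0.108% of such windows.

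The stabilins are large scavenger receptors with 69 exons each in their canonical transcripts. Stab2, the hyaluronan clearance receptor, lies on chromosome 10 from 86675054 to 86843889 (minus strand) and had 6.75 ± 1.84 FPKM (range 4.54 to 9.84, median 6.51) in Fgl1 LWT mice and 7.02 ± 2.76 FPKM (range 3.7 to 12.9, median 6.79) in Fgl1 LKO mice. Stab1, on chromosome 14 from 30860970 to 30890598 (minus strand), had 5.0 ± 1.42 FPKM (range 3.25 to 7.44, median 4.81) and 5.94 ± 2.23 FPKM (range 3.74 to 10.8, median 5.53). For both genes the highest mouse was Fgl1 LKO replicate 3 and the genotypes overlapped. The log2 fold changes were 0.02 for Stab2 (95% interval -0.37 to 0.41, exact permutation p = 0.934, limma adjusted p = 0.983) and 0.19 for Stab1 (-0.17 to 0.56, exact permutation p = 0.338, limma adjusted p = 0.797).

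Lyve1, a hyaluronan receptor shared with lymphatic endothelium, had the widest spread of the 10. It lies on chromosome 7 from 110448585 to 110462460 (minus strand, 6 exons). Values ran from 1.54 to 9.1 FPKM in Fgl1 LWT mice (median 4.1, mean 4.51 ± 2.59) and from 1.86 to 9.74 FPKM in Fgl1 LKO mice (median 4.59, mean 5.05 ± 2.48), a 6.32-fold range over the 16 mice. Each genotype held both high and low mice, and the log2 fold change of 0.17 had a 95% interval of -0.44 to 0.79 (exact permutation p = 0.598, limma adjusted p = 0.901).

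Pecam1 encodes an adhesion molecule at the junctions of endothelial cells of all vessels, and Kdr the main VEGF receptor. Pecam1, on chromosome 11 from 106543689 to 106641454 (minus strand, 16 exons), had 3.74 ± 1.46 FPKM (range 2.23 to 6.54, median 3.33) in Fgl1 LWT mice and 4.6 ± 1.61 FPKM (range 2.29 to 7.43, median 4.76) in Fgl1 LKO mice. With 6 of 8 Fgl1 LKO mice above the Fgl1 LWT median, it had the largest log2 fold change of the 10, 0.24 (95% interval -0.17 to 0.65, exact permutation p = 0.269, limma adjusted p = 0.784). Kdr, on chromosome 5 from 76093487 to 76139884 (minus strand, 30 exons), had a mean of 5.61 FPKM in both genotypes (SD 2.37 and 2.31). Its values spanned 2.84 to 8.75 FPKM (median 5.51) in Fgl1 LWT mice and 2.36 to 10.1 FPKM (median 5.5) in Fgl1 LKO mice. The log2 fold change of Kdr was 0.01 (95% interval -0.49 to 0.51, exact permutation p = 0.978, limma adjusted p = 0.993).

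Oit3 encodes a secreted protein of the liver and lies on chromosome 10 from 59258780 to 59277702 (minus strand, 9 exons). The gene had 8.28 ± 3.32 FPKM (range 3.89 to 13.8, median 8.56) in Fgl1 LWT mice and 9.2 ± 4.32 FPKM (range 3.39 to 17.9, median 8.81) in Fgl1 LKO mice. Again the extremes on both sides were Fgl1 LKO mice, and the log2 fold change was 0.11 (95% interval -0.45 to 0.66, exact permutation p = 0.718, limma adjusted p = 0.936).

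The ligands had the lowest levels. Bmp2, on chromosome 2 from 133394079 to 133404816 (plus strand, 3 exons), had 2.82 ± 1.24 FPKM (range 1.55 to 4.58, median 2.54) in Fgl1 LWT mice and 2.89 ± 1.41 FPKM (range 1.13 to 5.5, median 2.78) in Fgl1 LKO mice. Wnt2, on chromosome 6 from 17985468 to 18031892 (minus strand, 5 exons), had 0.995 ± 0.305 FPKM (range 0.64 to 1.55, median 1.06) and 1.06 ± 0.578 FPKM (range 0.61 to 2.36, median 0.905). The highest Wnt2 value, of Fgl1 LKO replicate 3, stood apart from the next Fgl1 LKO mouse at 1.28 FPKM, and both ligands overlapped between genotypes. Their log2 fold changes were 0.01 for Bmp2 (95% interval -0.46 to 0.49, exact permutation p = 0.962, limma adjusted p = 0.989) and 0.02 for Wnt2 (-0.26 to 0.31, exact permutation p = 0.867, limma adjusted p = 0.975). Even the lowest Wnt2 value of 0.61 FPKM was about 30 times the lowest value above 0 (median 0.02 FPKM) of 135 genes of like transcript length, and the lowest Bmp2 value, 1.13 FPKM, about 56 times.

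**Figure D2:**
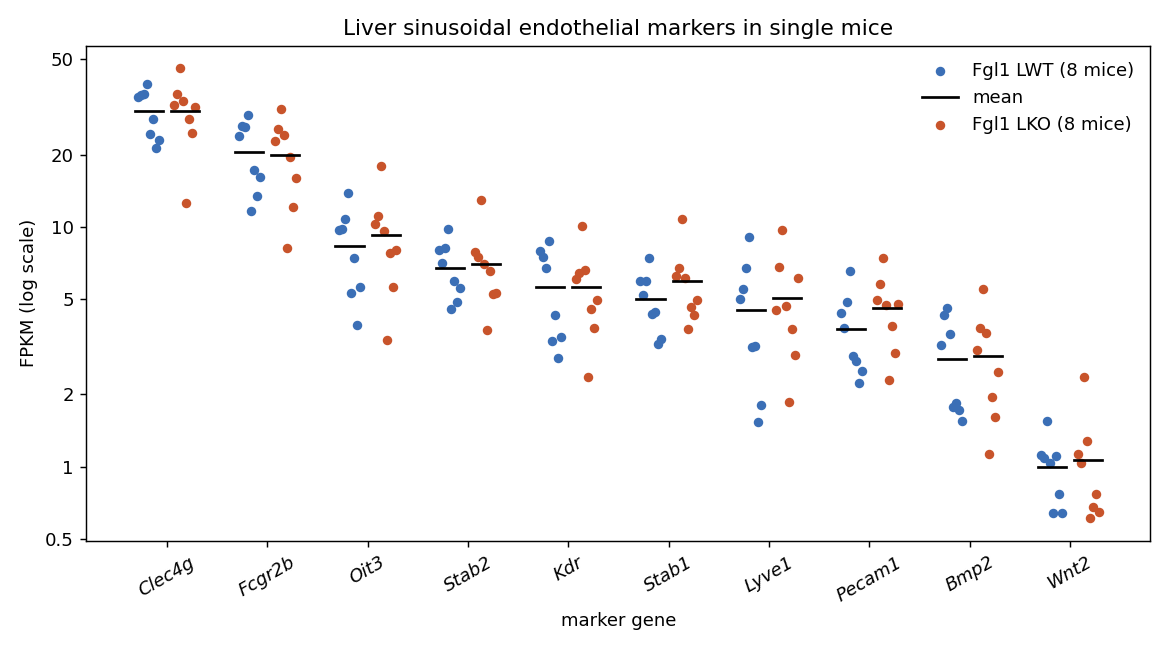
FPKM of the 10 markers on a log axis, with 1 point per mouse (Fgl1 LWT blue, Fgl1 LKO orange, 8 mice each) and bars for the means, ordered by the mean over all mice. The genotypes overlap for every marker, from Clec4g at 12.6 to 45.8 FPKM down to Wnt2 at 0.61 to 2.36 FPKM.

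The levels of the markers were graded, and some neighbours in that order changed places between mice. Over all 16 mice the mean FPKM was 30.4 for Clec4g, 20.2 for Fcgr2b, 8.74 for Oit3, 6.88 for Stab2, 5.61 for Kdr, 5.47 for Stab1, 4.78 for Lyve1, 4.17 for Pecam1, 2.85 for Bmp2 and 1.03 for Wnt2. Neighbours in this order were compared within mice by an exact sign-flip permutation test of log2 FPKM, adjusted over the 9 neighbouring pairs. The order itself was taken from the means of these same 16 mice, and the p-values do not allow for that. Clec4g exceeded Fcgr2b, Fcgr2b exceeded Oit3 and Bmp2 exceeded Wnt2 in 16 of 16 mice (exact permutation, adjusted p = 9.16e-05 each, from p = 3.05e-05, the smallest the test can give). Stab2 exceeded Kdr, and Pecam1 exceeded Bmp2, in 15 of 16 mice (exact permutation, adjusted p = 0.000165 each). Oit3 lay above Stab2 in 14 mice (exact permutation, adjusted p = 0.00188) and Stab1 above Lyve1 in 11 (exact permutation, adjusted p = 0.0126). Kdr and Stab1 did not differ beyond their spread (exact permutation, adjusted p = 0.87, geometric mean ratio 0.992, Kdr higher in 6 of 16 mice), nor did Lyve1 and Pecam1 (exact permutation, adjusted p = 0.312, ratio 1.07, Lyve1 higher in 9 mice).

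The levels differed between mice more than between genotypes, and the 10 markers differed together. Fgl1 LKO replicate 3 had the highest value of all 16 mice for each of the 10. Fgl1 LKO replicate 5 was among the lowest 3 mice for all 10 and was the lowest for 7, and Fgl1 LWT replicate 7 was the lowest for the other three, Stab1, Lyve1 and Pecam1. The summed FPKM of the markers differed 3.86-fold between these Fgl1 LKO mice, 153.7 in replicate 3 and 39.8 in replicate 5. Within genotypes the residual SD of each marker on log2(FPKM + 1) lay between 0.294 for Wnt2 and 0.65 for Lyve1. On that scale they stood at percentiles 85.8 to 98.2 of all genes (median of all genes 0.17). Adding 1 shrinks the spread of genes near 1 FPKM such as Wnt2. On log2 FPKM over the 16 mice the SD was lowest for Clec4g (0.44) and highest for Lyve1 (0.81), and that of Wnt2 was 0.54, the same as for Pecam1.

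Over the 45 pairs of markers, Pearson's r of log2(FPKM + 1) across the 16 mice had a median of 0.89, from 0.69 for Lyve1 with Wnt2 to 0.97 for Oit3 with Kdr. Spearman's rho had a median of 0.9 and ranged from 0.6 to 0.97. All 45 values of r, and all 45 of rho, had a permutation p under 0.05 after Benjamini-Hochberg adjustment over the pairs (100000 resamples, the smallest p they can give being 1e-05). For all pairs of genes whose mean reached 1 FPKM the median r was 0.07, and 2.08% of such pairs reached 0.69. Without the 2 mice farthest from the median of the first gene the median r was 0.9 (range 0.57 to 0.98), so the relation did not rest on the extreme mice. It was 0.91 among Fgl1 LWT mice, 0.94 among Fgl1 LKO mice, and 0.81 (range 0.34 to 0.95) with the means of genotype and of the run of mouse numbers removed. The first principal component held 89.4% of the variance of the standardised markers. Oit3 followed the mean of the other nine most closely (r = 0.99) and Wnt2 least (r = 0.81).

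**Figure D3:**
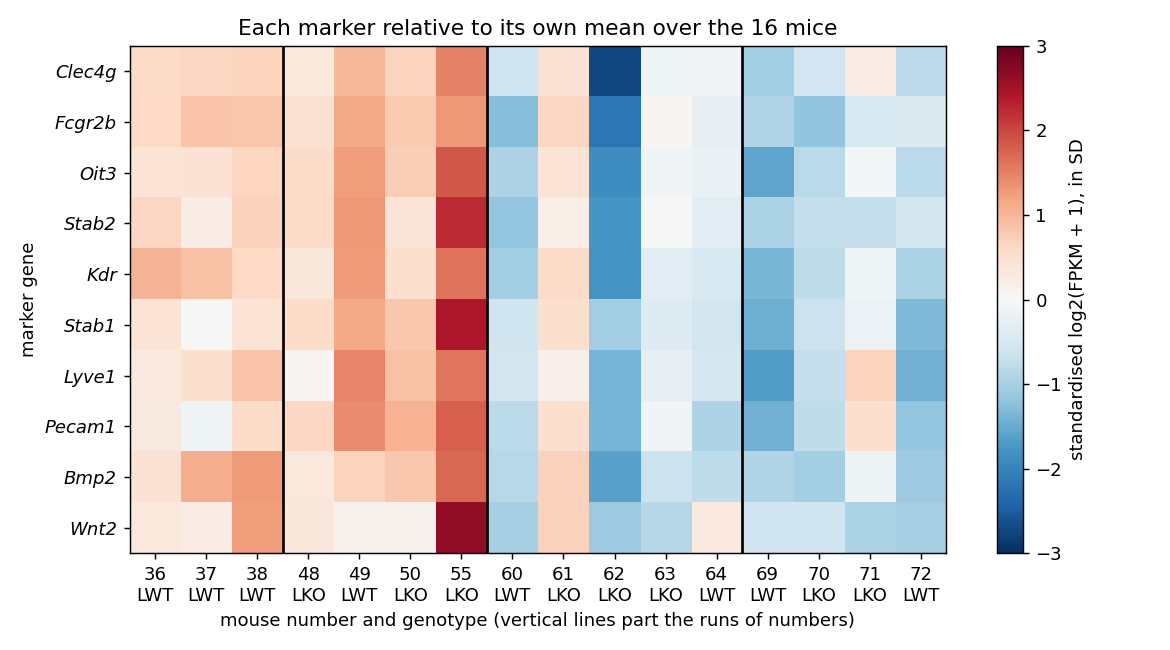
Standardised log2(FPKM + 1) of each marker (rows) in each mouse (columns, ordered by mouse number with the genotype below), in SD from the mean of the marker over 16 mice, red above and blue below. Columns are nearly uniform in colour, with mouse 55 (Fgl1 LKO replicate 3) red for all 10 markers and mouse 62 (Fgl1 LKO replicate 5) blue for all 10.

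The markers were higher in mice with low numbers than in mice with high numbers. The labels number the mice 36 to 72 and say nothing of what the numbers stand for. They were grouped here into 4 runs (36 to 38, 48 to 55, 60 to 64 and 69 to 72). This grouping is a judgement, since the gap from mouse 50 to 55 is like those from 55 to 60 and from 64 to 69. The first run holds 3 Fgl1 LWT mice only. Mice numbered 36 to 55 were set against those numbered 60 to 72, a split made after the values had been seen. Clec4g had a mean of 37.0 FPKM in the 7 mice numbered 36 to 55 and 25.2 FPKM in the 9 numbered 60 to 72. For Lyve1 these means were 6.77 and 3.23 FPKM, and for Bmp2 4.0 and 1.96 FPKM. All 10 markers had ratios above 1, from 1.47 for Clec4g to 2.1 for Lyve1 (median 1.7). The median ratio was 1.8 after scaling to an equal sum, 1.62 after median-ratio scaling, and 1.62 both without Fgl1 LKO replicate 3 and without Fgl1 LKO replicate 5.

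In Fgl1 LWT mice alone, the 4 mice numbered 36 to 49 all lay above the 4 numbered 60 to 72 for 9 of the 10 markers, against 8.34% of all genes. Wnt2 was the exception, with 1.04 FPKM in mouse 49 and 1.11 FPKM in mouse 64. Among Fgl1 LKO mice the 3 numbered 48 to 55 all lay above the 5 numbered 61 to 71 for 4 of the 10 (Oit3, Stab2, Stab1 and Pecam1), against 3.34%. With genotype in the model, a limma F test of the 4 runs, which was chosen after the values had been seen, gave an unadjusted p under 0.05 for 10 of 10 markers, against 17.6% of all genes. At an adjusted p under 0.05 it gave 0 of 10 (range of adjusted p 0.0864 to 0.231), against 0.102% of all genes (13 genes). When each mouse was scaled to an equal sum, 3 of 10 passed (Stab1, adjusted p = 0.0468, Bmp2, 0.0476, and Kdr, 0.0489), against 1.26% of all genes (161 genes). The split at number 60 was likewise made after the values had been seen. Since the markers varied together, none of these counts is of separate observations.

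Since the first run is of Fgl1 LWT mice only, the genotypes were also compared without it. Over the remaining 13 mice the log2 fold change was above 0 for 10 of 10 markers, against 62.7% of all genes, with a median of 0.27 (range 0.12 for Clec4g to 0.43 for Lyve1). No marker passed even unadjusted, the lowest limma p being 0.127 for Pecam1 (adjusted p = 0.808). With the run as a term for all 16 mice, 9 of 10 were above 0, against 58% of all genes, and the median was 0.12 (lowest limma p 0.123, adjusted p = 0.697). Because the markers varied together, 10 of 10 and 9 of 10 are not counts of separate observations.

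Ratios between the markers were also compared between the 2 genotypes. The ratio to Pecam1, a comparison made after the values had been seen, had a lower geometric mean in Fgl1 LKO mice for each of the 9 other markers, and for 4 of 9 the exact permutation p, unadjusted, was under 0.05. Clec4g stood at 8.41 times Pecam1 in Fgl1 LWT mice and 6.65 times in Fgl1 LKO mice (difference -0.34 on the log2 scale, exact permutation p = 0.0103). Fcgr2b stood at 5.53 and 4.25 times Pecam1 (-0.38, exact permutation p = 0.00901). The ratio of Stab2 was 1.86 and 1.52 (-0.29, exact permutation p = 0.0235), and that of Kdr 1.46 and 1.19 (-0.29, exact permutation p = 0.0162). Over the 13 mice without the first run, 2 of 9 kept an exact permutation p under 0.05 (Clec4g, -0.36, 0.0264, and Fcgr2b, -0.33, 0.0466). All 9 ratios share Pecam1, which had the largest log2 fold change of the 10 markers. That all 9 were lower therefore follows from the choice of Pecam1, and the p-values do not allow for that choice. Against the mean log2 FPKM of 23 other pan-endothelial genes, Pecam1 itself was higher in Fgl1 LKO mice by 0.24 (exact permutation p = 0.0117) and Stab1 by 0.16 (exact permutation p = 0.034), while Clec4g (-0.1, exact permutation p = 0.172), Fcgr2b (-0.14, exact permutation p = 0.158), Stab2 and Kdr were not lower beyond the spread between mice. The p-values of these 9 and 10 ratios were not adjusted.

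Genes of other endothelial lists varied with the markers. The mean standardised log2(FPKM + 1) of the markers, their score, had r = 0.99 with that of 23 pan-endothelial genes, 0.97 with 14 other sinusoidal genes and 0.97 with 10 genes of larger vessels. Each of these lists, like the markers, had 0 genes past the threshold for genotype, against 0% of all genes. Each also had 0 with an unadjusted p under 0.05, against 7.01% of all genes. Their median log2 fold changes were 0.07 (pan-endothelial), 0.002 (other sinusoidal) and 0.08 (larger vessels). Ehd3, a membrane trafficking gene of these cells, had 14.9 ± 4.76 FPKM in Fgl1 LWT mice and 14.8 ± 7.38 in Fgl1 LKO mice (r with the score 0.95). Gpr182, a scavenging receptor for chemokines, had 10.8 ± 4.5 and 11.7 ± 4.35 FPKM (r = 0.89), and Eng, a co-receptor for BMP9, moved alike, with r = 0.95 and a mean of 18.9 FPKM over all mice. Ltbp4, a matrix gene of larger vessels, stood at 7.44 ± 2.62 and 8.62 ± 3.38 FPKM (r = 0.93), and Ly6a at 6.23 ± 1.32 and 6.85 ± 2.12 FPKM with a weaker r of 0.32. S1pr1, the sphingosine-1-phosphate receptor and the gene with the highest level of the pan-endothelial list, did not follow the markers, with 23.6 ± 3.46 and 20.6 ± 5.43 FPKM and r = -0.31. Other genes of these lists, named after their values were seen, also followed weakly. They were Selp (r = 0.16), Dkk3 (0.17), Gata4 (0.36), Ecscr (0.44), Sox17 (0.52), Wnt9b (0.56) and Cd34 (0.59).

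Among 10028 genes other than the markers whose mean reached 1 FPKM, the median r with the score was 0.17, and 54 genes had r of at least 0.9, of which 17 belong to the endothelial lists. The 10 genes most like the markers were Robo4 (r = 0.988), Ptprb (0.983), Mmrn2 (0.981), Flt4 (0.98), Tek (0.979), Ets1 (0.969), Podxl (0.969), Adgrf5 (0.968), Flt1 (0.959) and Plpp1 (0.959), over 16 mice. Ptprb, a phosphatase of endothelial junctions, had 4.37 ± 1.77 FPKM in Fgl1 LWT mice and 4.72 ± 2.07 FPKM in Fgl1 LKO mice. Tek, the angiopoietin receptor, had 1.88 ± 0.752 and 2.04 ± 0.914 FPKM. These likenesses are over mice that share scaling, and the score had r = -0.65 with the summed FPKM of a mouse and 0.72 with its median-ratio size factor. After rescaling to an equal sum the median r between markers was 0.91, and after median-ratio scaling 0.87.

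**Figure D4:**
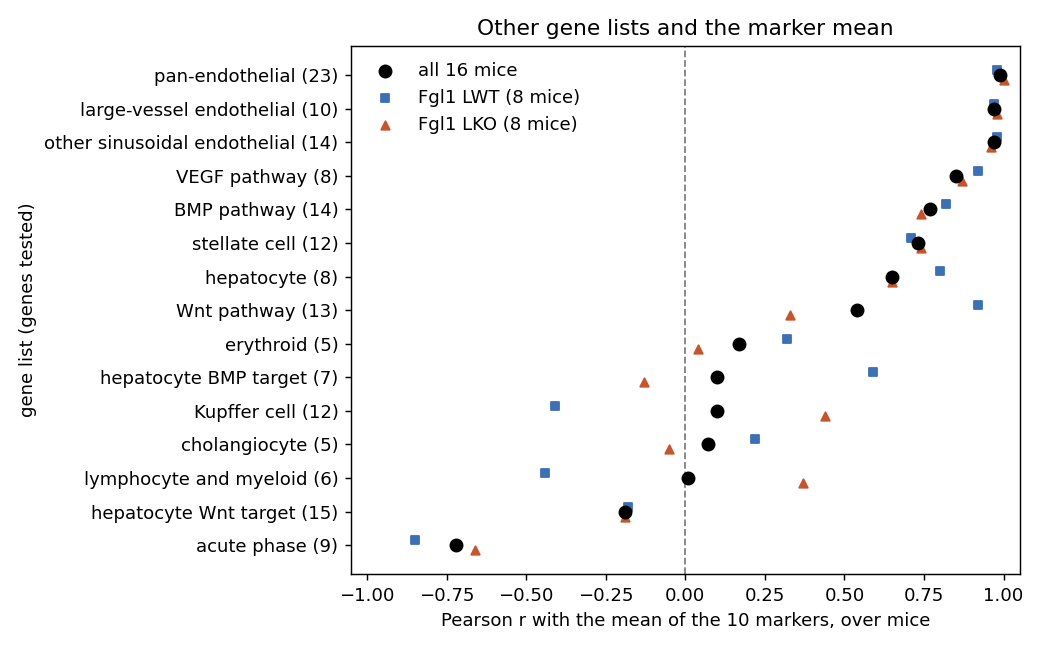
Pearson's r over mice between the mean standardised log2(FPKM + 1) of each gene list (rows, with the number of genes tested) and that of the 10 markers, for all 16 mice (black circles), Fgl1 LWT mice (blue squares) and Fgl1 LKO mice (orange triangles). The 3 endothelial lists lie at 0.97 to 0.99, while the acute-phase list lies at -0.72.

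Receptors and ligands of the pathways that meet at these cells varied with the markers only in part. Of the VEGF pathway beside Kdr, 8 genes were tested and 0 had an unadjusted p under 0.05, against 7.01% of all genes. Its score had r = 0.85 with that of the markers (0.58 with genotype and run means removed and 0.9 without the 2 farthest mice). The receptors Flt4 and Flt1 had r = 0.98 and 0.96, while the ligand Vegfa (52.1 ± 7.25 FPKM in Fgl1 LWT and 46.0 ± 3.73 FPKM in Fgl1 LKO mice, exact permutation p = 0.0668, limma p = 0.0601, adjusted p = 0.697) had r = 0.43 and the co-receptor Nrp1 (12.7 ± 2.58 and 17.9 ± 11.7 FPKM) r = -0.41. Nrp1 was the 1 gene of the 8 below 0. The other co-receptor Nrp2, named after its values were seen, had r = 0.89. Around Wnt2, 13 genes of the Wnt pathway had r = 0.54 with the markers (0.92 in Fgl1 LWT and 0.33 in Fgl1 LKO mice, 0.27 without the 2 farthest mice, 0.32 after median-ratio scaling and 0.67 with an equal sum). Of these 13, 0 passed unadjusted, against 7.01% of all genes. The genes of this pathway with the highest levels, the co-receptor Lrp5 (24.8 ± 4.75 and 26.6 ± 4.89 FPKM) and the R-spondin receptor Lgr4 (14.2 ± 0.965 and 13.5 ± 1.07 FPKM), had r = 0.43 and 0.04. Over its 13 genes the median r was 0.22, and 3 were below 0. The 1 that reached 0.7 was Wls (r = 0.9), named after its values were seen. Targets of Wnt signalling in hepatocytes had r = -0.19 with the markers (15 genes, 0.13 with genotype and run means removed, -0.41 after median-ratio scaling). Cyp2e1 (3100 ± 601 and 2700 ± 679 FPKM) and Glul (387 ± 54.8 and 422 ± 75.1 FPKM) both had r = 0.01. Sp5, a transcription factor induced by Wnt signalling, was the 1 gene of these 15 with an unadjusted p under 0.05, a share near the 7.01% of all genes, at 0.508 ± 0.112 and 0.68 ± 0.202 FPKM (log2 fold change 0.15, exact permutation p = 0.0503, limma p = 0.0462, adjusted p = 0.696).

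For the BMP pathway, 14 genes were tested, and 0 had an unadjusted p under 0.05, against 7.01% of all genes. Their score had r = 0.77 with the markers (0.59 after median-ratio scaling and 0.84 with an equal sum). The median r of the single genes was 0.23, and 3 of the 14 reached 0.7. Bmp6, the other BMP ligand of sinusoidal cells, named after its values were seen, had 1.15 ± 0.448 FPKM in Fgl1 LWT mice and 1.38 ± 0.785 FPKM in Fgl1 LKO mice, with r = 0.84. The hepatocyte co-receptor Hjv had 50.6 ± 5.6 and 46.3 ± 12.2 FPKM and r = 0.22. The 7 targets of BMP signalling in hepatocytes had r = 0.1 over all mice, 0.59 in Fgl1 LWT mice and -0.13 in Fgl1 LKO mice. Hamp, which encodes hepcidin, had 3550 ± 1730 FPKM in Fgl1 LWT mice and 3880 ± 1610 FPKM in Fgl1 LKO mice with r = 0.03, and Id2 90.0 ± 24.1 and 111 ± 44.5 FPKM with r = -0.41. Over the 7 targets the median r was 0.03, and 2 had r below 0. The 1 target that reached 0.7 was Smad6 (r = 0.75), named after its values were seen.

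Lists of other liver cells had lower r with the markers than the endothelial lists. Stellate cell genes had r = 0.73 with the markers (12 genes, 0.49 without the 2 farthest mice), with Dcn at 63.2 ± 9.54 and 59.4 ± 17.3 FPKM (r = 0.62) and Colec11 at a mean of 18.4 FPKM over all mice (r = 0.7). Hepatocyte genes had r = 0.65 (8 genes, 0.43 after median-ratio scaling and 0.42 with genotype and run means removed), with Alb at 44200 ± 9800 and 39300 ± 5080 FPKM (r = 0.68) and Apoa1 at 10400 ± 1580 and 10100 ± 1070 FPKM (r = 0.41). Cyp3a11 (r = -0.56) and Serpina1a (r = -0.46), named after their values were seen, ran the other way. The Kupffer cell list, of the macrophages that sit in the same sinusoids, had r = 0.1 over 12 genes, with -0.41 in Fgl1 LWT mice, 0.44 in Fgl1 LKO mice and 0.41 with genotype and run means removed. Differences of r between the genotypes were not tested. All 12 had a log2 fold change above 0 (median 0.27), against 55.8% of all genes, 2 had an unadjusted p under 0.05, against 7.01% of all genes, and 0 passed the threshold. These were Vsig4 (11.9 ± 2.8 and 15.8 ± 4.31 FPKM, exact permutation p = 0.0514, limma p = 0.0309, adjusted p = 0.696) and Adgre1 (3.66 ± 1.01 and 5.16 ± 1.64 FPKM, exact permutation p = 0.0455, limma p = 0.0272, adjusted p = 0.696), while C1qc (41.3 ± 9.39 and 49.9 ± 12.6 FPKM) and Cd5l (mean 39.0 FPKM over all mice) did not pass. Whether the 12 Kupffer cell genes varied together was not tested, so they may not count as separate observations. Over all mice r was 0.07 for cholangiocytes, 0.01 for lymphocytes and myeloid cells and 0.17 for erythroid cells. It was -0.44 in Fgl1 LWT and 0.37 in Fgl1 LKO mice for lymphocytes and myeloid cells, and with genotype and run means removed it was -0.35 for cholangiocytes and 0.45 for erythroid cells. Their genes with the highest levels had r = -0.12 (Spp1), -0.14 (Sox9), -0.28 (S100a8), -0.31 (S100a9), 0.19 (Hba-a1) and 0.4 (Alas2). The other genes did not all run the same way as these. Of all genes tested, r was below 0 for 2 of 5 cholangiocyte, 3 of 6 lymphocyte and myeloid and 2 of 5 erythroid genes. In these lists 1 gene, the myeloid Itgax, had an unadjusted p under 0.05, a share near the 7.01% of all genes (0.16 ± 0.0699 and 0.256 ± 0.0993 FPKM, exact permutation p = 0.035, limma p = 0.0407, adjusted p = 0.696).

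Acute-phase genes, which hepatocytes induce in inflammation, ran against the markers. The score of 9 such genes had r = -0.72 with that of the markers over 16 mice (rho = -0.75), -0.85 in Fgl1 LWT mice, -0.66 in Fgl1 LKO mice, -0.65 with the means of genotype and run removed and -0.66 without the 2 farthest mice, and all 9 genes had r below 0. The mice lowest in summed markers, Fgl1 LKO replicate 5 (39.8 FPKM), Fgl1 LWT replicate 7 (56.0 FPKM) and Fgl1 LWT replicate 5 (62.0 FPKM), had the highest Saa1 values, 7669, 16268 and 13092 FPKM (Saa1 named after its values were seen). In the mouse with the highest markers, Fgl1 LKO replicate 3, Saa1 was 68.4 FPKM. Some mice departed from this relation, such as Fgl1 LKO replicate 7, which had 63.8 FPKM of markers and 181.0 FPKM of Saa1, and Fgl1 LKO replicate 2, with 110.6 and 3545 FPKM. Hp, the haptoglobin gene, had r = -0.72 and Fgb, of fibrinogen, -0.54. The acute-phase genes did not differ between the genotypes past the threshold (0 of 9, against 0% of all genes, lowest limma adjusted p 0.885). Their part in the differences between mice was not tested.

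**Figure D5:**
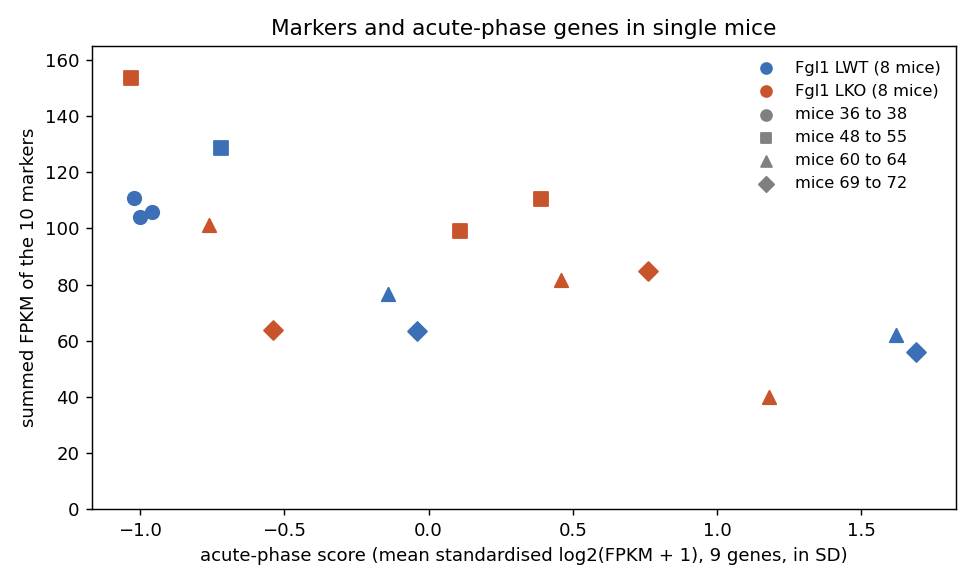
Summed FPKM of the 10 markers (y axis, from 0) against the acute-phase score (x axis, mean standardised log2(FPKM + 1) of 9 genes, in SD) in 16 mice, coloured by genotype and with a symbol for each run of mouse numbers. The 3 mice with scores above 1 have 39.8 to 62.0 FPKM, and the mouse with the most, 153.7 FPKM, has a score of -1.03.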

How the data were processed

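Liver RNA of 16 mice was sequenced by the authors as stranded polyA libraries on a DNBSEQ instrument. They filtered the reads, aligned them to mm39 with HISAT and to reference genes with Bowtie2, and deposited FPKM to 2 decimals for 17003 genes, scaled to transcript length and library size. Versions and annotation release are not given in the sources used here. According to the methods each genotype had 7 mice, while the table has 8. The decimal commas were read as points. FPKM are not counts, so no count test was used.

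From these values, log2(FPKM + 1) was computed, genes whose mean reached 0.1 FPKM were kept, and genotypes were compared with limma 3.58.1 in R 4.3.3, by two-sided moderated tests with a mean-variance trend. P-values were adjusted by Benjamini-Hochberg over all 12770 genes, with a threshold of 0.05. Single genes were compared by exact permutation over all splits of 8 against 8 mice. Python 3.11.15, numpy 2.4.6, scipy 1.17.1 and pandas 2.3.3 were used elsewhere. Steps were tested on simulated data. The members and the gene lists were chosen with earlier results of these data known. Named were the 10 markers, Fgl1, listed genes past the threshold or with an unadjusted limma p under 0.05, the 2 with the highest mean FPKM of each list, and the 10 genes most correlated with the markers, others being named as chosen after their values were seen. Depth is unknown, so no counting error is given. Every p-value takes single mice as its units. The permutation tests did not take the runs of mouse numbers into account.

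Alternatives were other pseudocounts (0.1 and 0.01), filters and scalings, quantile normalization, array weights, eBayes without trend, a replicate block, a term for the runs of mouse numbers, and fits without the first run or without each mouse. An acute-phase covariate, the test of runs, the split of the mice at number 60 and the ratios between markers were added after the data were seen. The split between runs 48 to 55 and 60 to 64 is a judgement, since the gaps between mouse numbers there are alike. Positions and promoters are from GRCm39 with GENCODE vM39, and 1 promoter is not reported here.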

Additional observations from a re-analysis of the deposited data

Results flagged for a closer look

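Among 136 groups of 8 mice, each of 1 gene in 1 genotype, 4 held a mouse whose gap to its nearest neighbour was a large share of the whole range by Dixon's 95% limit, where chance alone gives about 1 in 20 (6.8 groups). Wnt2 was highest in Fgl1 LKO replicate 3, with 2.36 FPKM against 1.28 FPKM in the next mouse, and this mouse was also the highest for the other nine markers, none of which was flagged. S1pr1 was lowest in Fgl1 LWT replicate 8 (16.4 FPKM, next 22.2 FPKM). Lgr4 was highest in Fgl1 LWT replicate 4 (16.4 FPKM, next 14.3 FPKM). Spp1 was highest in Fgl1 LKO replicate 8 (255.0 FPKM, next 76.3 FPKM).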

How the results depend on the processing

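Over 30 settings, the lowest adjusted p of a marker was 0.677 (limma), and in each setting 0 of 10 markers had an adjusted or an unadjusted p under 0.05 between genotypes. The sign of the log2 fold change did not change for Lyve1, Pecam1 and Stab1, and it changed in at least 1 setting for the other 7, whose values lay near 0. Leaving out each mouse gave -0.11 to 0.13 for Bmp2, -0.12 to 0.13 for Clec4g, -0.17 to 0.085 for Fcgr2b, -0.11 to 0.14 for Kdr, -0.036 to 0.27 for Oit3, -0.11 to 0.12 for Stab2 and -0.083 to 0.076 for Wnt2. With array weights it was -0.021 for Stab2, -0.071 for Kdr, -0.03 for Bmp2 and -0.007 for Wnt2. With quantile normalization it was -0.018 for Stab2, -0.023 for Kdr and -0.001 for Bmp2, and with median-ratio scaling -0.007 for Kdr. Clec4g turned to 0.014 with a term for the runs, to 0.118 without mice 36 to 38 and to 0.012 with the acute-phase covariate, and Fcgr2b to 0.145 without mice 36 to 38. The cause was not tested. When single mice were left out, the median log2 fold change of the markers lay between -0.094 (without Fgl1 LKO replicate 3) and 0.134 (without Fgl1 LKO replicate 5), and was also below 0 without Fgl1 LWT replicate 5, 7 or 8. It was -0.014 with array weights and 0.274 without mice 36 to 38, the highest over the settings. Over all genes, 1 gene (Fgl1) passed the threshold, against 0, with an equal sum in each mouse, a term for the runs, the mice 36 to 38 left out, the acute-phase covariate, or a replicate block. Replicate numbers did not pair mice (correlations of same-numbered mice -0.16 to 0.45, 3 of 8 above 0.1, and 2 Fgl1 LWT mice correlate best with their own number), and with the replicate block 0 markers passed. The median r between markers was 0.81, against 0.89, with genotype and run means removed, and the test of runs called 3 markers, against 0, with an equal sum in each mouse. The unknown depth limits Wnt2 most, which was near 1 FPKM.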
